A study of Mus musculus with 22 samples.

Results

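Scgb1c1, Cep128, Lgals4, Efnb3, Tlcd2, Tmem232 and Tmem196 are 7 mouse genes that are seldom discussed in the heart, and their RNA was followed in whole hearts of mice with and without thyroid hormone treatment. They were chosen by their very large T3 or genotype differences on these same arrays, as 7 of 19505 genes named by a probe set. The contrasts below therefore describe the genes and carry no test. Each gene was read from its single probe set, and all 7 had a mean log2 intensity above 4 and entered the fit. Tmem232 averaged below 4 in both wild-type groups and passed only through the TRα1+m arrays.

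Hearts came from male C57/BL6NCr mice, 3 to 6 months old, each housed alone at 30 °C, where mice spend little energy on keeping warm. Animals were wild type or TRα1+m, heterozygous for the R384C point mutation of thyroid hormone receptor α1. Treated mice of each genotype drank T3 at 0.5 mg/L for 12 days, and all drinking water, with or without T3, held 0.01% bovine serum albumin. Of the wild-type animals 6 drank plain water and 6 drank T3, and of the mutants 5 and 5, with 1 Clariom S array per mouse. The mutation is present in every cell from conception, so the receptor of the cardiomyocyte and that of the brain, vessels or pituitary were altered together. The study's methods name both purchased wild-type mice and littermates of the mutants, and which of them were on the arrays is not stated.

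Thyroid hormone acts mainly through nuclear receptors that sit on DNA, recruit co-repressors when empty and co-activators when T3 is bound. TRα1 is the main form in cardiomyocytes, where the hormone is known for raising the pacemaker channel gene Hcn2 and lowering the slow myosin gene Myh7. The R384C receptor binds T3 poorly and holds such genes in a hypothyroid state that an excess of T3 can overcome. Other genes are known to be higher without hormone and lower when it is given. Scgb1c1, Cep128, Lgals4 and Efnb3 had that direction in both genotypes. They were chosen for the size of such differences, and whether the receptor acts on them was not tested.

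The stretches of 250 bases before the RefSeq transcription start (build GRCm38.p6) are shown for genes whose levels differed with T3, because binding sites of thyroid hormone receptors can lie there. Such a window was held for 6 of the 7 genes, all but Efnb3. All windows are written 5′ to 3′ on the strand of the gene and end next to the start. Capitals mark the hexamer AGGTCA, the core of thyroid hormone receptor sites, or its reverse complement, and in Scgb1c1 also the GC box GGGCGG in reverse complement.
Scgb1c1, chr7:140845315-140845564, plus strand: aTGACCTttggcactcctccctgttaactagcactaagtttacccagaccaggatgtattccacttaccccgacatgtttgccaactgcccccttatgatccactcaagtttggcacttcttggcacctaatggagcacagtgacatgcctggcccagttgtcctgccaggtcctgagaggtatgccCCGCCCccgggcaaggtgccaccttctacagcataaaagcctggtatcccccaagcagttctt
Cep128, chr12:91384410-91384659, minus strand: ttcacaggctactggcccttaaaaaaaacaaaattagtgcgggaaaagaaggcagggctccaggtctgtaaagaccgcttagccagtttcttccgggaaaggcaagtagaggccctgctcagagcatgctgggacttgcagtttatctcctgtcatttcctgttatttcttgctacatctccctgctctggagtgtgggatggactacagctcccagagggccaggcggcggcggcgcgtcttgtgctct
Lgals4, chr7:28833544-28833793, plus strand: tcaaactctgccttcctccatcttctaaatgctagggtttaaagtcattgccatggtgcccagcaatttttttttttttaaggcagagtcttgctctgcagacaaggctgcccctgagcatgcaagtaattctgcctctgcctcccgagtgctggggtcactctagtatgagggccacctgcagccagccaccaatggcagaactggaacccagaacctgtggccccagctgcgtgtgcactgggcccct
Tlcd2, chr11:75467800-75468049, plus strand: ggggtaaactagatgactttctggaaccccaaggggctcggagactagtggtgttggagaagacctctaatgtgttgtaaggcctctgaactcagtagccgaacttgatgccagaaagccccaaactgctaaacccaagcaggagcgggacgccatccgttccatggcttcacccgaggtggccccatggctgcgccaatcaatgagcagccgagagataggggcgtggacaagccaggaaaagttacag
Tmem232, chr17:65510058-65510307, minus strand: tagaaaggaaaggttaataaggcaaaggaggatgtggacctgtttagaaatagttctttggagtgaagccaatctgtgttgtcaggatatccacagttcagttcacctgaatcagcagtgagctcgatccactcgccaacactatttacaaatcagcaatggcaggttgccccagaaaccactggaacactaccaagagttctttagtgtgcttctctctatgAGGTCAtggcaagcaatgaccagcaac

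AGGTCA was found on either strand in 2 of the 6 windows, 249 to 244 bases before the start of Scgb1c1 and 27 to 22 bases before that of Tmem232, beside 14.0% of all 32851 windows of this length. The direct repeat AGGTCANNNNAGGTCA, which contains the hexamer and is the classical site of the receptor, was found in 0 of the 6 and in 0.0152% of all windows. The TATA box TATAAA was found in 0 of the 6 (12.4% of all windows) and the GC box only in Scgb1c1 (32.7%). The GC content of the 6 windows ran from 44.8% in Tmem232 to 56.8% in Tmem196, around a median of 52.4% over all windows. These are matches of letters in short windows, and sites elsewhere were not searched.

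The arrays separated by genotype on principal component 1 (46.8% of the variance) and by T3 on component 2 (15.1%). On component 3 (7.63%) wild-type water replicate 3 and wild-type T3 replicate 6 stood apart, and without both the difference of any of the 7 genes moved by at most 0.16 log2 units. The genotypes lay on different scales, since the median difference over all 21092 tested probe sets was 0.36 on water and 0.35 on T3, and close to 0 after quantile normalization, so genotype differences are given as deposited and after quantile normalization. All 6 cardiomyocyte markers exceeded the 95th percentile of the negative-control probe sets on every array. Of 9 lung and airway markers, 8 to 9 per group stayed at or below the negative-control median on every array (log2 of the summed intensity 7.86 to 8.86), as did 5 to 7 of 8 gut epithelium markers (8.27 to 8.76). The log2 of the summed intensity of 5 fat markers ran from 6.8 to 12.4 in untreated wild type and from 7.9 to 12.8 in untreated TRα1+m hearts. On T3 it ran from 7.3 to 8.9 and from 8.7 to 9.4. The part of fat in the values of single genes was not tested. In a whole organ, fewer cells of a type and less RNA per cell cannot be told apart.

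**Figure D1:**
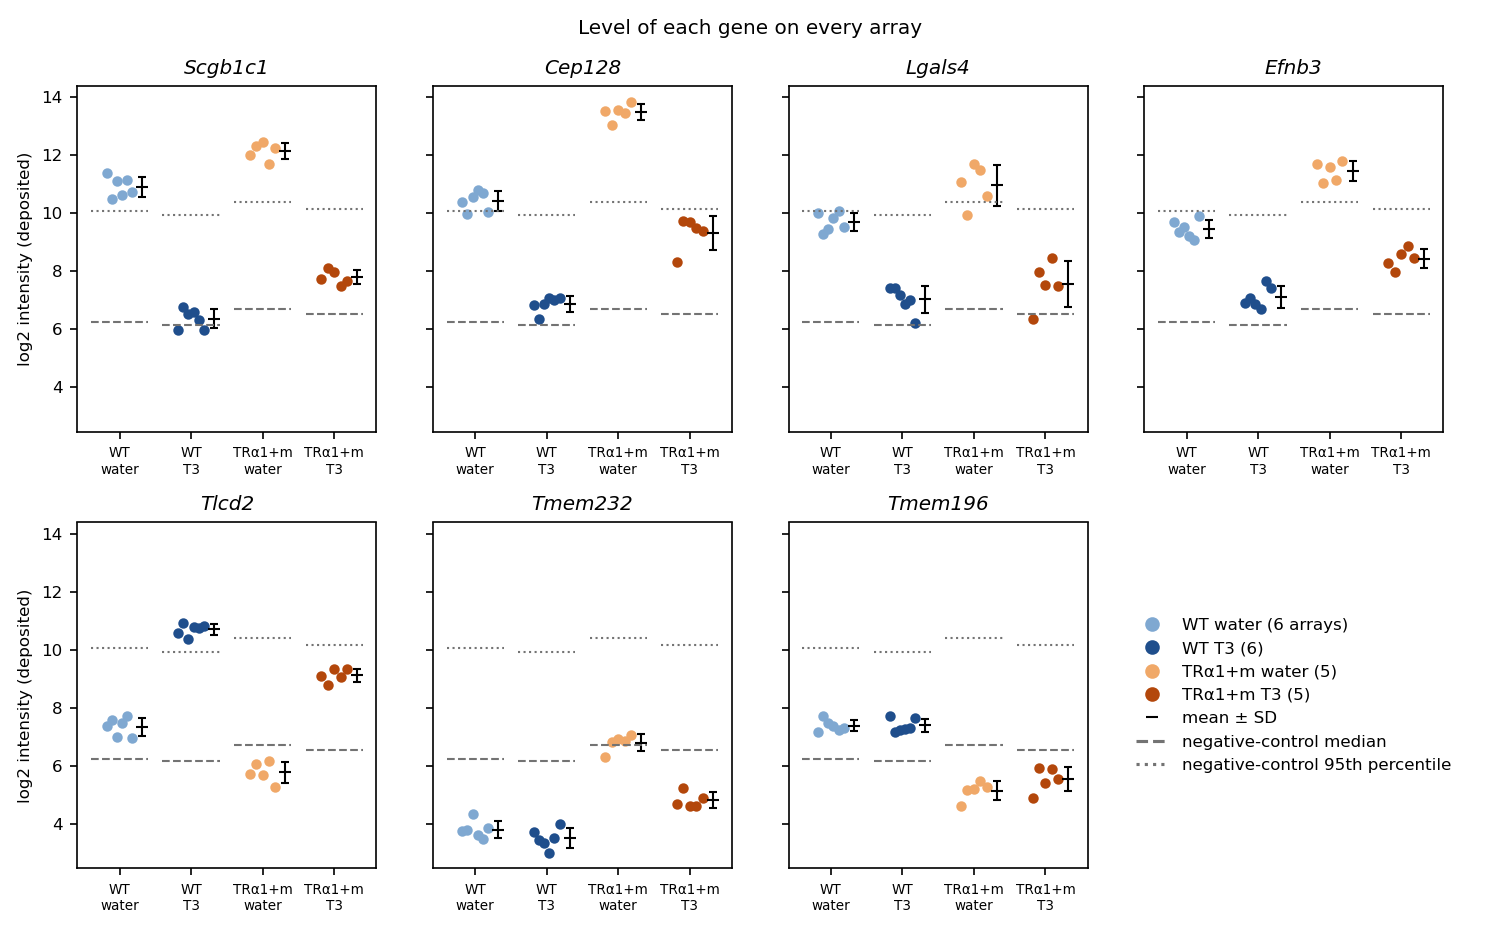
Deposited log2 intensity (y axis) of the 7 genes on each of the 22 arrays by group (x axis), with the mean ± SD in black and the group's average negative-control median (dashed) and 95th percentile (dotted). Scgb1c1, Cep128, Lgals4 and Efnb3 are lower on T3 in both genotypes, Tlcd2 is higher, Tmem232 stands highest in TRα1+m on water, and Tmem196 separates the genotypes.

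Scgb1c1 encodes a small secreted protein of the secretoglobin family, whose best known relative, Scgb1a1, is the club cell protein of the airway. In wild-type hearts on water its log2 intensity ran from 10.50 through a median of 10.92 to 11.39, and on T3 from 5.99 through 6.43 to 6.76. In TRα1+m hearts the 5 arrays on water read 12.02, 12.31, 12.44, 11.71 and 12.23, and the 5 on T3 read 7.74, 8.11, 7.99, 7.48 and 7.68. Each treated array lay far below every untreated array of its genotype, and within each treatment every TRα1+m array lay above every wild-type array. The T3 difference was -4.54 ± 0.17 (SE) in wild type, 23.3-fold, rank 1 among the lower of 18510 named genes. In TRα1+m it was -4.34 ± 0.19, 20.2-fold, rank 2. The genotype difference was 1.23 ± 0.18 on water and 1.43 ± 0.18 on T3, and 1.07 and 1.01 after quantile normalization. The difference of treated TRα1+m from untreated wild-type hearts was -3.11 ± 0.18 (-3.40 after quantile normalization), with no overlap.

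Cep128 encodes a protein of the subdistal appendages, the spokes of the mother centriole that anchor microtubules. It was highest in untreated mutants, where the arrays read 13.53, 13.05, 13.54, 13.46 and 13.84. Untreated wild-type arrays ran from 9.97 through 10.49 to 10.80. On T3 the wild-type arrays ran from 6.36 through 6.94 to 7.07, and the TRα1+m arrays read 8.32, 9.72, 9.69, 9.48 and 9.40. All 4 groups were separate from one another, and the mutant hearts on T3 came within 0.25 log2 units of the lowest untreated wild-type heart without reaching it. The T3 difference was -3.55 ± 0.21 in wild type (11.7-fold) and -4.16 ± 0.23 in TRα1+m (17.9-fold), each of rank 3 among lower genes. The genotype difference on water, 3.07 ± 0.22 or 8.42-fold, had rank 7 among higher genes and was 2.95 after quantile normalization. On T3 it was 2.46 ± 0.22 (2.09 after quantile normalization). The difference between treated mutant and untreated wild-type hearts was -1.09 ± 0.22, or 2.13-fold (-1.33 after quantile normalization).

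Lgals4 encodes galectin-4, a sugar-binding protein best known from the epithelium of the gut. Its arrays in untreated wild type ran from 9.29 through 9.69 to 10.09, and on T3 from 6.21 through 7.10 to 7.44. Untreated TRα1+m arrays read 11.07, 9.94, 11.68, 11.50 and 10.59 and treated ones 6.34, 7.96, 7.51, 8.47 and 7.48. This gene had the widest spread of the 7 in mutants (SD 0.71 on water and 0.79 on T3, against 0.32 and 0.46 in wild type), and the genotypes overlapped on water and on T3. The T3 difference was -2.68 ± 0.30 in wild type (6.40-fold) and -3.41 ± 0.33 in TRα1+m (10.6-fold), each of rank 5, with no overlap of treated and untreated arrays. The genotype difference was 1.25 ± 0.32 on water (1.05 after quantile normalization). On T3 it was 0.52 ± 0.32, and 0.12 after quantile normalization, within the spread between arrays. Of the 8 gut epithelium markers, 6 averaged below the negative-control median in all 4 groups, so a change of these could hardly be measured, and the part of such cells in the Lgals4 values was not tested.

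Efnb3 encodes ephrin-B3, a membrane-bound ligand of Eph receptors known from axon guidance at the midline. Untreated wild-type arrays ran from 9.09 through 9.44 to 9.91 and treated ones from 6.70 through 6.99 to 7.67. The TRα1+m arrays read 11.68, 11.04, 11.60, 11.13 and 11.81 on water, and 8.29, 7.97, 8.60, 8.87 and 8.47 on T3. The order of the groups was the same as for Scgb1c1 and Cep128, and neighbouring groups were separate on the deposited scale. After quantile normalization the treated groups of both genotypes touched, by 0.10 log2 units. The T3 difference was -2.35 ± 0.19 in wild type (5.11-fold, rank 8 among lower genes) and -3.01 ± 0.20 in TRα1+m (8.06-fold, rank 6). The genotype difference was 1.99 ± 0.20 on water and 1.33 ± 0.20 on T3, or 1.79 and 0.93 after quantile normalization.

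Tlcd2 encodes a membrane protein with a TLC domain, a fold shared with the ceramide synthases, and in human cells and worms it and its relatives act on the fatty acids of membrane phospholipids. It was the mirror image of the 4 preceding genes. Untreated wild-type arrays ran from 6.95 through 7.41 to 7.73 and treated ones from 10.37 through 10.76 to 10.93. The TRα1+m arrays read 5.72, 6.05, 5.70, 6.17 and 5.26 on water and 9.09, 8.79, 9.35, 9.06 and 9.32 on T3. Every group was separate from every other, with the treated wild type highest and the untreated mutant lowest. The T3 difference was 3.35 ± 0.16 in wild type (10.2-fold, rank 4 among higher genes) and 3.34 ± 0.17 in TRα1+m (10.1-fold, rank 8). The genotype difference was -1.57 ± 0.17 on water and -1.58 ± 0.17 on T3 (2.96-fold and 2.99-fold), and -2.03 and -1.85 after quantile normalization. Treated mutants lay 1.77 ± 0.17 above untreated wild type (1.43 after quantile normalization). On water Tlcd2 lay below the negative-control median on all 5 TRα1+m arrays, so the mutant level on water is not separated from background.

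Tmem232 encodes a transmembrane protein that male mice need for the flagellum of the sperm. Wild-type arrays on water ran from 3.49 through 3.77 to 4.33 and on T3 from 3.01 through 3.47 to 4.0, all below the negative-control median. The TRα1+m arrays read 6.31, 6.82, 6.91, 6.86 and 7.07 on water, where 4 of 5 exceeded that median, and 4.68, 5.25, 4.61, 4.61 and 4.88 on T3, where 0 did. In untreated mutants the gene lay in the middle of the negative controls, from percentile 41.3 to 58.2, and lower in the other groups, so no group's level is separated from background. On water the genotype difference was 2.99 ± 0.18 (7.94-fold, rank 11), and 2.59 after quantile normalization. The T3 difference in TRα1+m was -1.98 ± 0.18 (3.96-fold, rank 26), and in wild type it was -0.30 ± 0.17 with overlapping arrays. Treated mutants lay 1.01 ± 0.18 above untreated wild type, and these groups overlapped after quantile normalization, where the difference was 0.66.

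Tmem196 encodes a protein with several membrane spans. Its level separated the genotypes, while T3 and water arrays overlapped. Wild-type arrays ran from 7.17 through 7.33 to 7.72 on water and from 7.17 through 7.29 to 7.71 on T3. The TRα1+m arrays read 4.62, 5.18, 5.20, 5.46 and 5.28 on water and 4.90, 5.91, 5.40, 5.90 and 5.56 on T3. All wild-type arrays lay above the negative-control median and all mutant arrays below it. Wild-type arrays lay from percentile 68.4 to 79.0 of the controls, and 0 exceeded the 95th percentile. Mutant arrays lay from percentile 11.2 to 36.0. Levels in every group thus lay among the controls, and the folds that follow depend on levels close to background. The genotype difference was -2.24 ± 0.17 on water (4.71-fold, rank 4 among lower genes) and -1.86 ± 0.17 on T3 (3.62-fold, rank 7), and -2.69 and -2.31 after quantile normalization. Between T3 and water it differed by 0.01 ± 0.16 in wild-type and by 0.39 ± 0.18 in mutant hearts, with overlapping arrays in both. The difference of treated mutants from untreated wild type was -1.85 ± 0.17.

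**Figure D2:**
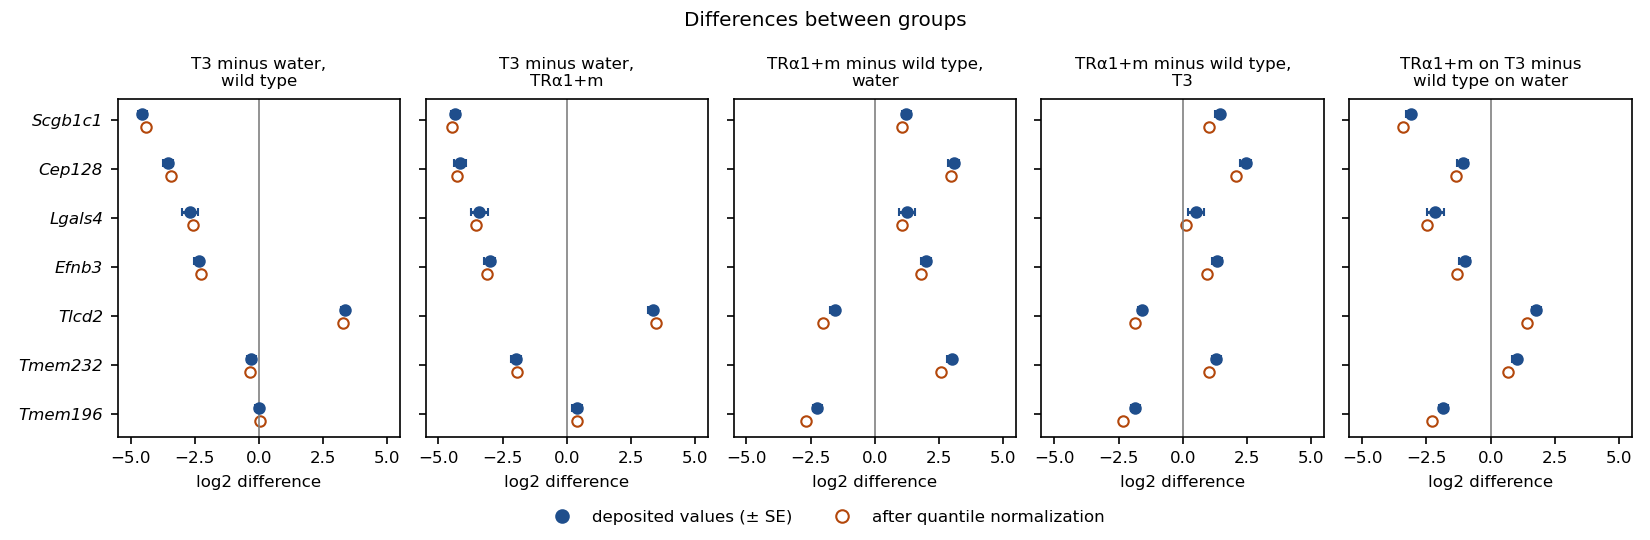
Log2 differences (x axes) of the 7 genes (y axis) in 5 contrasts, on the deposited values with limma's standard error (filled) and after quantile normalization (open). T3 differences hardly depend on the scale, and genotype differences are shifted downward by quantile normalization.

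Side by side, T3 separated treated from untreated arrays without overlap for 5 of the 7 genes in wild type, beside 7.37% of all tested probe sets, and for 6 of 7 in TRα1+m, beside 13.1%. The genes were chosen for T3 or genotype differences on these arrays. Nothing is therefore read from these counts or from those of the other contrasts that follow. The genotypes were separate for 6 of 7 genes on water (28.0% of all probe sets) and 6 of 7 on T3 (29.1%), with Lgals4 the exception in both. Treated TRα1+m and untreated wild-type hearts were separate for all 7 on the deposited scale (30.1%) and for 6 after quantile normalization, where Tmem232 overlapped. In this last contrast Scgb1c1, Cep128, Lgals4 and Efnb3 lay below untreated wild type, and Tlcd2 above it, each on the far side of wild type from the untreated mutant. Tmem196 stayed on the side of the untreated mutant, with a gap between the ranges of 1.26 (1.68 after quantile normalization), and Tmem232 did so with a gap of 0.28 on the deposited scale. Genotype differences of the genes higher in mutants shrank further when arrays were centred on the median of their genes. They shrank over 1.5 times for Scgb1c1 (0.73 on water and 0.94 on T3), Lgals4 (0.75 and 0.03), Efnb3 on T3 (0.84) and Tmem232 on T3 (0.81). Those of Tlcd2 (-2.065 on water and -2.079 on T3) and Tmem196 (-2.733 and -2.353) grew. Contrasts share groups here, so similar values across them are not independent.

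The T3 difference of the mutants minus that of wild type was -0.62 ± 0.31 for Cep128, -0.73 ± 0.45 for Lgals4 and -0.66 ± 0.28 for Efnb3. It was 0.21 ± 0.25 for Scgb1c1, -0.01 ± 0.24 for Tlcd2 and 0.38 ± 0.24 for Tmem196. For Tmem232 it was -1.69 ± 0.25, rank 7 among lower genes, at levels not separated from background in any group. Over all probe sets, 58 of 21092 (0.275%) were called for a T3 difference that depends on genotype, where called means an adjusted p below 0.05 in limma with Benjamini-Hochberg adjustment.

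The negative-control probe sets give a rough floor for these levels, since their sequences differ from those of the genes and their spread is wide. Their median per array averaged 6.25, 6.16, 6.71 and 6.54 in wild type on water, wild type on T3, TRα1+m on water and TRα1+m on T3, and their 95th percentile 10.06, 9.92, 10.40 and 10.15. Scgb1c1 exceeded the 95th percentile on 6 of 6 and 5 of 5 untreated arrays and on 0 of 6 and 0 of 5 treated arrays. Cep128 did so on 5 of 6 untreated wild-type and 5 of 5 untreated mutant arrays, and Tlcd2 on 6 of 6 treated wild-type arrays. Efnb3 exceeded it on 5 of 5 untreated mutant arrays and 0 of 6 untreated wild-type arrays, and Lgals4 on 3 of 5 and 1 of 6. On T3 in wild type Scgb1c1 lay among the controls, from percentile 46.2 to 62.5, so its level there is not separated from background. In treated TRα1+m hearts it lay from percentile 70.2 to 79.2. Treated wild-type hearts also lay among the controls for Cep128 (percentile 53.9 to 68.0), Lgals4 (51.1 to 75.1) and Efnb3 (61.1 to 79.0), as did treated TRα1+m hearts for Lgals4 (45.6 to 85.4). The folds printed for these groups therefore depend on a level close to background.

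Across the 22 arrays the levels of the 5 genes with T3 differences in both genotypes ran together. Pearson's r was 0.97 between Cep128 and Efnb3, 0.94 between Scgb1c1 and Lgals4 and -0.98 between Scgb1c1 and Tlcd2, and it was -0.83 between Tmem232 and Tmem196. These values rest on the 4 groups that the arrays share. Within groups, after each group's mean was removed, r between the 7 genes ran from -0.40 to 0.58 with a median of 0.00 over 21 pairs, the highest between Tmem232 and Tmem196 and the next, 0.45, between Cep128 and Lgals4. TRα1+m on T3 replicate 1 read lowest of its group for Cep128 (8.32), Lgals4 (6.34) and Tmem196 (4.90), and not for Scgb1c1, Efnb3, Tlcd2 or Tmem232.

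The genes whose levels were most like each of the 7 over the 22 arrays included well-known cardiac and metabolic genes. Closest to Scgb1c1 were Idh2, the mitochondrial isocitrate dehydrogenase (r = 0.98), Tcea3 (0.97) and Txlnb (0.97). Closest to Cep128 were Afmid (0.98), Ldhb, the heart form of lactate dehydrogenase (0.98), and Fam126a (0.97). For Lgals4 they were Pcnt, a scaffold protein of the centrosome (0.98), Nadk2 (0.97) and Osbpl1a (0.97). For Efnb3, besides Cep128, they were Gata6os (0.97) and Rxrg, the retinoid X receptor γ and thus a partner type of thyroid hormone receptors (0.96). For Tlcd2 they were Man1c1, Egln3, an oxygen-sensing prolyl hydroxylase, and Rgs7 (0.985 each). Those of Tmem232 were Rtl3 (0.95), Inpp4b (0.94) and Get1 (0.94), and those of Tmem196 were Atp2a2, the calcium pump of the sarcoplasmic reticulum (0.97), Sppl2a (0.96) and Serinc1 (0.96).

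With group means removed, other genes came closest, and Rxrg stayed with Efnb3 (0.83). Scgb1c1 then went with Eea1 (0.83), Mesp2 (0.76) and Sh2d1b1 (0.72), and Lgals4 with Cep85l (0.84), Retsat (0.83) and Acaa2 (0.83), the latter a mitochondrial thiolase of fatty acid oxidation. Cep128 went with Olfr800 (0.78), Olfr823 (0.76) and Phkg1 (0.76), and Efnb3 further with Gal3st2c (0.79) and Mtnr1a (0.77). Tlcd2 went with Ip6k3 (0.83), Preb (0.80) and Emc3 (0.78), Tmem232 with Tssk6 (0.77), Olfr1188 (0.77) and Scgb2b27 (0.77), and Tmem196 with Fam162b (0.83), D17H6S53E (0.79) and Laptm4b (0.76). The points share arrays, and the 3 highest correlations per gene were picked from all named genes tested, so they are a description only.

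The genes next to the 7 on the chromosomes were tested to see whether T3 differences extended over their surroundings. Up to 3 measured protein-coding genes on each side were taken in the order of the RefSeq table (GRCm38.p6), 39 in all, without regard to their values. Scgb1c1 had none called among its 6 neighbours in either genotype, including Urah and Odf3 next to it, and neither did Cep128, which lies between Dio2, the deiodinase that makes T3, and Tshr, the receptor of thyroid-stimulating hormone. Of these 12 neighbours 0 in wild type and 1 in TRα1+m (Ston2) had an unadjusted p below 0.05. Of all 39 neighbours 11 averaged below the negative-control median in all 4 groups. Urah, Odf3, Dio2 and Tshr were among them, as were Lgals7, Dnah2 and Macc1, which are named further on. A change of these genes could hardly be measured. Dio2 differed by 0.37 ± 0.31 with T3 in wild-type hearts and by -0.04 ± 0.34 in mutant hearts (adjusted p = 0.55 and 0.97, limma).

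Around Lgals4 the picture differed, and 3 neighbours were called in wild type and 4 in TRα1+m. Ech1, a gene of fatty acid oxidation, lies directly next to Lgals4. It fell by 0.85 ± 0.12 in wild type (adjusted p = 2.3e-05, lower in 6 of 6 arrays) and by 0.68 ± 0.13 in TRα1+m (adjusted p = 0.00068, 5 of 5), both in limma. Hnrnpl, a splicing factor beyond it, fell by 0.50 ± 0.14 and 0.49 ± 0.15 (adjusted p = 0.019 and 0.032). The wild-type call of Hnrnpl was lost without T3 replicate 6 (adjusted p = 0.055), and the mutant call without any of T3 replicates 2 and 3 or water replicates 1, 3 and 4 (adjusted p up to 0.11). On the other side Actn4, a cytoskeletal α-actinin, rose by 1.12 ± 0.13 and 1.50 ± 0.14 (adjusted p = 1.4e-06 and 4.3e-08), while Lgals7, the adjacent galectin, was not called (-0.05 ± 0.17 in wild type). Rinl rose by 0.69 ± 0.21 in TRα1+m (adjusted p = 0.026), a call lost without T3 replicate 1 or 3 or water replicate 1 (adjusted p up to 0.088).

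The other nearest measured genes were Dnah2 and Wrap53 beside Efnb3, Wdr81 and Prpf8 beside Tlcd2, Man2a1 and Vapa near Tmem232 and Macc1 beside Tmem196. Between Man2a1 and Tmem232 lies 1 protein-coding gene that was not tested. Of these nearest genes 0 were called for T3 by limma in either genotype. An unadjusted p below 0.05 was found for 0 in wild type and 1 in TRα1+m (Macc1). Farther out, Rab31 near Tmem232, a small GTPase of vesicle traffic, rose by 1.00 ± 0.17 and 1.24 ± 0.19 (adjusted p = 0.00021 and 3.8e-05), and Pja2 on the other side fell by 0.37 ± 0.11 and 0.60 ± 0.12 (0.026 and 0.00078), the former not called without wild-type T3 replicate 1 or 6 or water replicate 4 or 5 (adjusted p up to 0.078). Sat2 near Efnb3 fell by 0.39 ± 0.10 and 0.69 ± 0.11 (0.0093 and 7.1e-05), and Sp4, a transcription factor near Tmem196, fell by 0.66 ± 0.16 and 0.68 ± 0.17 (0.005 and 0.0071). Tmem88 near Efnb3 and Serpinf1 near Tlcd2 rose in wild type by 0.61 ± 0.12 and 0.71 ± 0.16 (0.00071 and 0.003), and Rilp near Tlcd2 fell in TRα1+m by 0.58 ± 0.12 (0.0014).

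**Figure D3:**
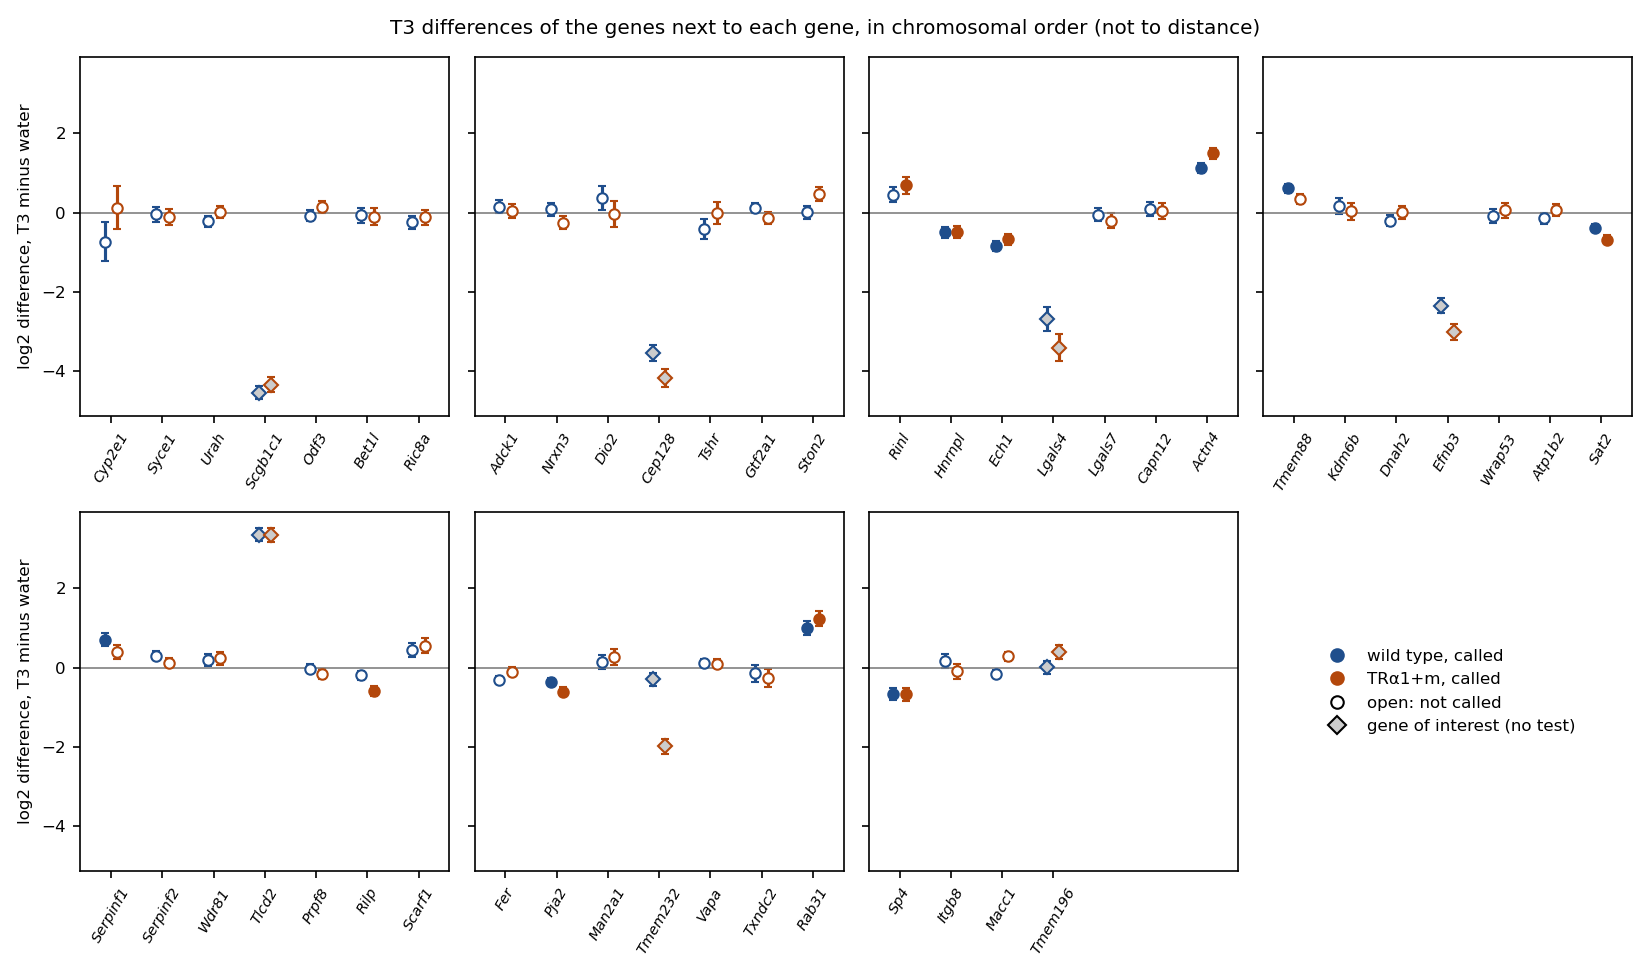
Log2 difference between T3 and water with its standard error (y axis) for each gene (diamonds) and up to 3 measured genes on each side in chromosomal order (x axis, not to distance), in wild type (blue) and TRα1+m (orange), filled where called. Neighbours lie between -0.85 and 1.50, apart from the much larger differences of Scgb1c1, Cep128, Lgals4, Efnb3 and Tlcd2 in both genotypes and of Tmem232 in TRα1+m.

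In all, 9 of 39 neighbours (23.1%) were called for T3 in wild type, 4 higher and 5 lower, where 12.7% of all tested probe sets were called, 6.26% higher and 6.49% lower. In TRα1+m 9 were called as well, 3 higher and 6 lower, where 15.2% of all were called, 8.24% higher and 6.92% lower. The medians of the 39 T3 differences were -0.04 and 0.01, beside 0.01 and -0.02 over all. For a T3 difference that depends on genotype limma called 0 of 39, and 2 had an unadjusted p below 0.05.

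For genotype, 19 neighbours were called on water, 15 higher and 4 lower, where 54.6% of all probe sets were called, 46.5% higher and 8.12% lower. On T3 15 were called, 13 higher and 2 lower, where 50.9% of all were called, 44.6% higher and 6.3% lower. These directions depended on the scale of the arrays, since after quantile normalization 4 neighbours were higher and 11 lower on water and 2 higher and 9 lower on T3. Called on both scales in the same direction on water and on T3 were Serpinf2 near Tlcd2 (-0.52 ± 0.12 and -0.69 ± 0.12, adjusted p = 0.00079 and 5.4e-05), Gtf2a1 near Cep128 (-0.44 ± 0.14 and -0.69 ± 0.14, adjusted p = 0.0092 and 0.00028) and Ech1 (0.41 ± 0.13 and 0.58 ± 0.13, adjusted p = 0.0087 and 0.00065, limma). Ech1 was not called in either once each array was centred on the median of its genes. Dio2 was higher in mutants on the deposited scale (1.33 ± 0.32 on water, adjusted p = 0.0016) and not called after quantile normalization (0.81, adjusted p = 0.063). Both Serpinf2 and Dio2 averaged below the negative-control median in all 4 groups.

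The relatives of the 7 genes were then followed, to see how far each behaved like its family or its cellular structure. The lists were 16 tested secretoglobins, 9 galectins, 19 ephrins and Eph receptors, 12 genes with a TLC domain, 15 genes of the centriole appendages and 11 genes of the sperm flagellum. The T3 differences of all their genes lay between -1.38 and 1.20 in wild type and between -1.39 and 1.59 in TRα1+m.

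Of the 16 secretoglobins, 12 averaged below the negative-control median in all 4 groups, which leaves little room for calls. Limma called 0 for T3 in wild type (1 with an unadjusted p below 0.05) and 1 in TRα1+m, where 12.7% and 15.2% of all tested probe sets were called. In TRα1+m Scgb3a1 rose by 1.13 ± 0.23 (adjusted p = 0.001), the direction opposite to Scgb1c1. The median T3 difference of the list was 0.05 and -0.13. Scgb3a1 is also an airway gene, and its mean level of 6.95 in treated mutants stood beside a negative-control median of 6.54.

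Of 9 galectins 3 were called in wild type, 2 higher and 1 lower, and 1 in TRα1+m, beside 12.7% and 15.2% of all probe sets. Lgals9, a galectin of immune regulation, rose by 1.20 ± 0.19 and 1.59 ± 0.21 (adjusted p = 0.0001 and 7.2e-06), against the direction of Lgals4. Lgals3 rose by 0.51 ± 0.17 and Lgals2 fell by 0.68 ± 0.18 in wild type (adjusted p = 0.043 and 0.013), both at mean levels below the negative-control median. The call of Lgals3 was lost when any of 10 arrays was left out (adjusted p up to 0.12).

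Of 19 ephrins and Eph receptors limma called 6 for T3 in wild type (31.6%; 1 higher, 5 lower) and 5 in TRα1+m (26.3%; 1 higher, 4 lower), beside 12.7% and 15.2% of all probe sets. Epha4, the Eph receptor through which ephrin-B3 acts in the nervous system, fell with its ligand gene in both genotypes, by 1.38 ± 0.17 and 1.39 ± 0.19 (adjusted p = 4.3e-06 and 9.2e-06). Its mean level went from 11.03 to 9.65 in wild type and from 11.88 to 10.50 in TRα1+m. Ephb3 fell by 0.98 ± 0.19 and 0.66 ± 0.21 (adjusted p = 0.00076 and 0.03), Epha7 by 0.66 ± 0.14 and 0.60 ± 0.15 (0.0019 and 0.0077) and Efna5 by 0.60 ± 0.17 and 0.69 ± 0.18 (0.016 and 0.0098), while Ephb1 rose by 0.80 ± 0.21 and 0.71 ± 0.23 (0.01 and 0.035). Efna2 fell in wild type by 0.48 (0.029). Ephb3 (wild-type means 6.64 on water and 5.67 on T3) and Efna2 (6.42 and 5.95) lay close to the negative-control median. In all 4 groups 5 of the 19 averaged below that median. Calls were lost on leaving out any of 7 arrays for Ephb3 in TRα1+m (adjusted p up to 0.093), 5 for Ephb1 in TRα1+m (up to 0.13) and 6 for Efna2 (up to 0.07). The median of the list was -0.01 and 0.02.

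Of 12 genes with a TLC domain 2 were called in wild type (16.7%) and 1 in TRα1+m (8.33%), near the 12.7% and 15.2% of all probe sets. Tlcd3a rose by 0.85 ± 0.15 and 0.84 ± 0.17 (adjusted p = 0.00032 and 0.0008) and Tlcd4 by 1.01 ± 0.22 in wild type (adjusted p = 0.0026). The ceramide synthases Cers2, Cers4 and Cers6 were not called for T3. For genotype 6 of the 12 were called on water (50.0%), all higher, near the 54.6% of all probe sets. After quantile normalization 2 were higher and 1 lower. Cers2, the ceramide synthase of very long acyl chains, was higher in mutants on both scales. It differed by 0.90 ± 0.13 on water (adjusted p = 5.9e-06, limma) and by 0.68 after quantile normalization (adjusted p = 9e-05).

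Among the 15 centriole appendage genes limma called 0 for T3 in wild type (2 with an unadjusted p below 0.05) and 1 in TRα1+m, beside 12.7% and 15.2% of all probe sets. The latter was Kif2a, a microtubule-depolymerizing kinesin that fell by 0.45 ± 0.13 (adjusted p = 0.016). Their T3 differences ran from -0.32 to 0.31 in wild type, beside -3.55 for Cep128. For genotype 5 were higher and 1 lower on water (40.0% called), and 3 higher and 1 lower on T3 (26.7%). Of all probe sets 54.6% and 50.9% were called. After quantile normalization 0 were higher and 2 lower on water, and 1 higher and 4 lower on T3. Ccdc68, a subdistal appendage gene, was higher in mutants by 0.75 ± 0.16 on water and 1.06 ± 0.16 on T3 (adjusted p = 0.00051 and 1.6e-05, limma), with 0.22 and 0.59 after quantile normalization (adjusted p = 0.28 and 0.0059). Cep83, a distal appendage gene, was lower in mutants by 0.59 ± 0.17 on water and 0.74 ± 0.17 on T3 (adjusted p = 0.0049 and 0.00087), with -0.92 and -1.04 after quantile normalization.

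Of the 11 sperm flagellum genes 9 averaged below the negative-control median in all 4 groups. Limma called 0 for T3 in wild type (1 with an unadjusted p below 0.05) and 1 in TRα1+m, beside 12.7% and 15.2% of all probe sets. In TRα1+m Cfap69 rose by 0.46 ± 0.16 (adjusted p = 0.049, and 0.1 after quantile normalization). This call was lost when any of 16 arrays was left out (adjusted p up to 0.11). For genotype 6 of the 11 were called on water (54.5%) and 5 on T3 (45.5%), all higher. Of all probe sets 54.6% and 50.9% were called. After quantile normalization 1 was higher on water and 2 on T3, and 0 were lower in either. Cfap44 was higher in mutants on both scales, by 1.32 ± 0.18 on water and 1.37 ± 0.18 on T3 (adjusted p = 2.6e-06 and 2.2e-06, limma). After quantile normalization its differences were 0.97 and 1.01.

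**Figure D4:**
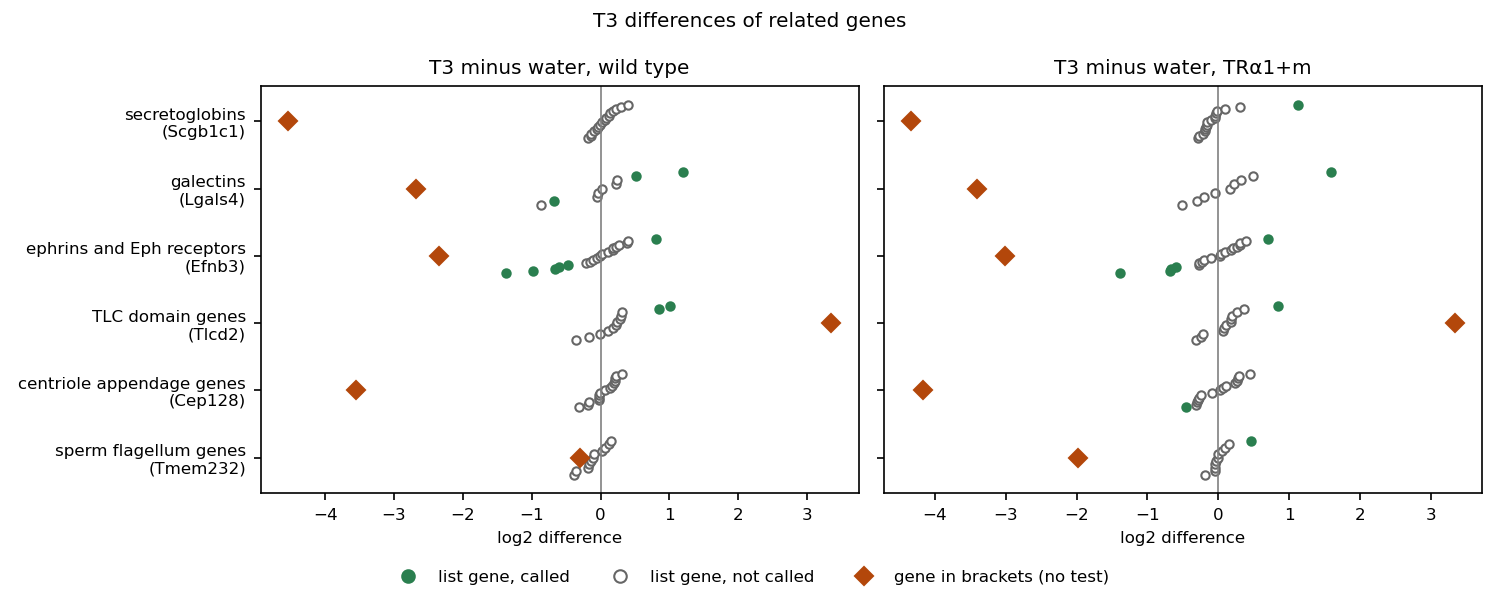
Log2 difference between T3 and water (x axis) of the genes of 6 lists (y axis), in wild type (left) and TRα1+m (right). Green points were called by limma, open points were not, and the diamond is the gene in brackets, which carries no test; the lists lie between -1.39 and 1.59.

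Textbook T3 genes of the heart show the size of the classical response on the same arrays. Of 17 tested, 7 were called for T3 in wild type (4 higher, 3 lower) and 8 in TRα1+m (5 higher, 3 lower), 41.2% and 47.1% beside 12.7% and 15.2% of all probe sets. Hcn2 rose by 2.99 ± 0.22 and 4.57 ± 0.24 (adjusted p = 9.3e-10 and 2.8e-12), and Myh7 fell by 1.91 ± 0.25 and 4.43 ± 0.28 (adjusted p = 8.5e-06 and 4.9e-11). Both reached similar means in treated hearts of either genotype, 9.94 and 10.04 for Hcn2 and 13.99 and 14.11 for Myh7. For Hcn2, Myh7 and the co-repressor gene Hr the T3 difference depended on genotype, by 1.58 ± 0.32, -2.53 ± 0.37 and -1.40 ± 0.28 (adjusted p = 0.026, 0.0015 and 0.026). Hcn2 and Hr each lost this call when any of 9 arrays was left out (adjusted p up to 0.072 and 0.066). Between the genotypes on T3, 9 of the 17 were called (52.9%; 3 higher, 6 lower), near the 50.9% of all probe sets (44.6% higher, 6.3% lower). After quantile normalization 3 were higher and 8 lower. Among those called were Ryr2, the calcium release channel (-0.71 ± 0.10, adjusted p = 3.8e-06, limma), and Atp2a2 (-0.52 ± 0.08, adjusted p = 2e-05). Scgb1c1, Cep128, Efnb3 and Tlcd2, which carry no test, differed by 1.43, 2.46, 1.33 and -1.58 on the deposited scale. Slc8a1, the sodium-calcium exchanger, fell by 1.21 ± 0.12 and 1.20 ± 0.13 (adjusted p = 1.9e-07 and 4e-07), the same direction as the 4 falling genes at a smaller size.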

How the data were processed

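RNA of 22 mouse hearts was hybridised to Clariom S arrays, 1 array per mouse. The deposited log2 intensities were made by the authors with RMA in Transcriptome Analysis Console 4.0.1, and the sources used here name no genome build. RMA subtracts background and equalises arrays processed together, and whether all 22 were processed together is not stated. The table held 28846 probe sets, of which 22206 were genes (19572 naming 1 gene, 2634 unnamed here) and 5222 negative controls. The values were used as deposited.

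Gene probe sets with a mean log2 above 4 (21092) were fitted by lmFit and eBayes of limma 3.58.1 under R 4.3.3, as 4 group means with 6 contrasts, two-sided, with Benjamini-Hochberg adjustment over all 21092. The fit was tested on simulated data. Standard errors come from this fit, and errors of levels are SD. The p-values weigh a difference of group means against the spread between mice within groups, pooled over the 4 groups and moderated across probe sets. The number of mice per group limits the precision. The 7 genes, the lists and the markers were chosen with earlier results of these data known. All 7 genes were named, with the 3 most alike genes of each and every neighbour called or measured nearest to one of the 7. From each list up to 4 called genes per contrast with the smallest adjusted p were named. Efna2, Cers4 and Cers6 fall outside that rule and were named after their values were seen. Neighbours were ordered by RefSeq, build GRCm38.p6. Alternatives were other scalings, filters, variance models, adjustments, left-out arrays and a replicate block.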

Additional observations from a re-analysis of the deposited data

Results flagged for a closer look

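Cep128 had a sample far from the others in each treated group. In wild type on T3, replicate 2 read 6.36 while the other 5 arrays ran from 6.82 to 7.07. In TRα1+m on T3, replicate 1 read 8.32 while the other 4 ran from 9.40 to 9.72, and the same array was the lowest of its group for Lgals4 and Tmem196. These were 2 of the 28 groups examined for the 7 genes, and chance marks about 1 in 20 groups in this way.

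Among the textbook T3 genes the T3 difference depended on genotype by the interaction test in limma for Myh7 (-2.53), Hcn2 (1.58) and Hr (-1.40).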

How the results depend on the processing

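Over all alternatives run, 1134 values of the 7 genes' differences were computed, of which 1095 stayed within 1 SD of the main value and 39 moved further. The sign changed in 20 of them, which concerned 3 results whose main values were no larger than 0.21 (the interactions of Scgb1c1 and Tlcd2 and the T3 difference of Tmem196 in wild type). Of 870 counts, 852 stayed within 1.5 times the main count. A filter at a mean of 6, which tests fewer genes, gave 7171, 6848 and 7475 calls over all probe sets for genotype on water, genotype on T3, and treated mutant against untreated wild type, 8 of the neighbours for genotype on T3, and 21, 16 and 20 of the genes in the 6 family lists. Quantile normalization gave 16, 23 and 23 of the family list genes (41, 35 and 37 as deposited), and centring on gene medians 22 on water. The share of genotype calls that were higher in mutants was 85.1% on water and 87.6% on T3 as deposited, 48.4% and 50.0% after quantile normalization, and 30.7% and 28.2% after gene-median centring. The cause of the scale difference was not tested. With trended and robust variances 99 probe sets were called for the interaction in place of 58. Leaving out 1 array gave 40 to 85 of these, 0 to 1 of the family list genes (1 without wild-type water replicate 6) and 1 to 3 textbook genes (1 without TRα1+m T3 replicate 2, 3 or 5, wild-type T3 replicate 4 or wild-type water replicate 5).

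Samples with the same replicate number hardly deviated together (median r 0.03 over 31 pairs, from -0.27 to 0.34). Over 150 pairs with other numbers the median was -0.006. What the shared numbers mean is not stated, and these correlations cannot settle it. With the replicate block 2715, 3295, 11692 and 10886 probe sets were called for T3 in wild type, T3 in TRα1+m, genotype on water and genotype on T3, and 65 for the interaction. The block moved no difference of the 7 genes by over 0.10. Averaging over probe sets was not run, as each of the 7 genes has 1. Levels among the negative controls limit Tmem232 in all groups, Tmem196, Tlcd2 on water, Scgb1c1, Cep128 and Efnb3 in treated wild type, and Lgals4 in both treated groups.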
